A study of Homo sapiens with 6 samples.

Results

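The regions described here were cohesin sites that appeared in the peak list of inflachromene-treated fibroblasts and in neither of the other cohesin lists. Whole SMC1 peaks of the 3 conditions were merged into loci on chromosomes 1 to 22 and X wherever they shared at least 1 bp, which gave 22580 loci. The members were the 4136 loci with a peak from the inflachromene list alone. They made up 18.3% of all SMC1 loci and 23.7% of the 17484 loci with a peak in that list, and each of them consisted of 1 peak. These loci were chosen by their presence in the 3 SMC1 lists, that is, by whether their signal entered each list, so that presence is a description and carries no test.

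The data were CUT&Tag profiles of IMR90, a line of human fetal lung fibroblasts, and the titles of all 6 libraries carried the same code, I79, which the labels do not explain. In this assay a transposase is tethered by an antibody to the sites of its target, and the fragments it releases are sequenced. For SMC1, the control and the treated library came from cells with the p number 16 in their titles, the treated cells having received inflachromene (ICM, a small molecule that binds HMGB1 and HMGB2), and the senescent library (p34) came from cells of high passage with the p number 34 and no treatment named. For CTCF, the control carried the p number 21, the ICM-treated cells 16 with 6 days of treatment, and the senescent cells 34. The title of the treated SMC1 library gave no number of days, and none of the titles gave a dose. Every library had 1 sample, so no difference between conditions could be tested, and culture and library cannot be told apart from the condition. The p number was the same in the control and treated SMC1 libraries, but for p34, and between control and treated CTCF libraries, it cannot be told apart from the condition either. Intervals below are exact 95% binomial (Clopper-Pearson) intervals that cover counting over loci only, and the sequencing depth of each library is unknown here.

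Cohesin is a ring of SMC1, SMC3 and RAD21 with a STAG subunit that extrudes chromatin into loops. It is loaded with the help of NIPBL and is released by WAPL. The DNA-binding insulator protein CTCF halts the moving ring when it is met in the right orientation, so that cohesin collects at CTCF sites. Cohesin is also found at active promoters and enhancers without CTCF. HMGB proteins are abundant, loosely bound chromatin proteins that bend DNA.

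The ICM list was the longest SMC1 list, with 17809 peaks against 14883 in control and 12927 in p34. All the lists had been kept to the top 1% of regions by signal, and the lowest total signal (coverage summed over a peak) that entered was 2455 in the ICM list, 3456 in control and 2796 in p34. Of the members, 3153 (76.2%) had a total signal below the lowest one listed in control, and 1571 (38.0%) below the lowest one listed in p34. Among the 8247 loci held by all 3 lists, 1224 (14.8%) lay below the control's lowest value in the ICM list. The lists are not known to share a scale, so these counts do not say whether a member had cohesin signal in the other libraries. A locus missing from a list is unlisted, which is not the same as unbound.

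The members lay mostly away from the starts of genes. The middle of the stretch with the tallest coverage was taken as the summit of a peak, and a locus was called promoter if an annotated gene began at most 1 kb from that summit. Of the 4136 members, 508 were at promoters, which was 12.3% (11.3 to 13.3%), beside 31.5% of all SMC1 loci. The other 3628 (87.7%) were distal. Loci listed in control alone were at promoters in 46.5% (44.3 to 48.7%) of cases, loci in all 3 lists in 40.8% (39.7 to 41.9%), and loci listed in p34 alone in 17.1% (15.6 to 18.8%). Loci shared by ICM and p34 but not control had a share of 12.7% (11.0 to 14.5%), an interval that overlapped that of the members.

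The distances themselves showed the same order. The median member lay 15906.5 bp from the nearest 5′ end, against 3271 bp for loci of all 3 lists, 1684.5 bp for control-only loci and 9341 bp for p34-only loci. Members between 1 and 10 kb from a 5′ end numbered 1113 (26.9%), those between 10 and 50 kb 1726 (41.7%), those between 50 and 100 kb 549 (13.3%) and those beyond 100 kb 240 (5.80%). When only protein-coding genes were counted, the median distance was 38847.5 bp. The body of a coding gene held 2178 members (52.7%), a gene of another kind alone held 503 (12.2%), and 1455 (35.2%) lay between genes. For loci of all 3 lists the share in a coding gene was 47.4% and the share between genes 40.8%, so the members' position differed more in the distance to a start than in lying inside or outside a gene.

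**Figure D1:**
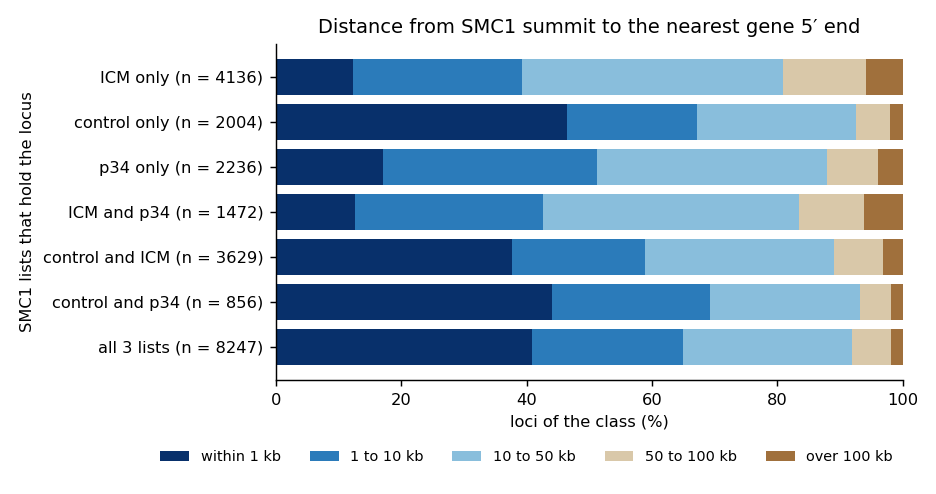
Distance from the SMC1 summit to the nearest gene 5′ end, as the percent of loci in each class of lists, with the number of loci beside each bar. The darkest part, loci within 1 kb of a 5′ end, is 12.3% of the ICM-only bar and 46.5% of the control-only bar, while the ICM and p34 bar is close to the ICM-only one at 12.7%.

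The lower promoter share was also found under other ways of joining loci and of ending the lists. When 2 peaks were instead counted as shared only if 100 bp windows around their summits overlapped, the ICM-only set grew to 6421 loci and its promoter share to 22.8% (21.7 to 23.8%), still below the 47.3% of control-only and the 29.9% of p34-only loci under that rule. With each SMC1 list kept to its 12927 peaks of highest total signal, the ICM-only share was 12.48% (11.1 to 13.97%) beside 48.1% for control-only loci. With all lists restricted to peaks at or above the lowest total signal in control, there were 1227 ICM-only loci. Of these, 11.3% (9.61 to 13.2%) were at promoters, beside 42.1% of control-only loci. Only 983 members reached that signal, so the 1227 also held loci that were not members. Control-only loci likewise numbered 4347 under this rule, against 2004 with the full lists. The lists are not known to share a scale, so this rule does not check the members by themselves.

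The members stood low in their own list. Their median total signal was 2942 and ranged from 2455 to 7424, which put the median member at percentile 22.4 of the ICM list and the highest at percentile 86.5. Ranked by highest signal (the tallest coverage inside the peak), the median member was at percentile 35.0, with a median height of 13 and a range from 4 to 39. In the lowest 10% of the list by total signal, 986 of the loci (56.7%) were members. The share fell through the list, to 286 loci (16.3%) between percentiles 50 and 60 and to 15 (0.852%) between 80 and 90, and above percentile 90 there were 0. The median width of a member was 639 bp (quartiles 508 and 813 bp, range 202 to 1771 bp), beside 754 bp for the whole ICM list. At loci of all 3 lists the strongest ICM peak had a median width of 865 bp, and the merged locus can be wider than that peak. Signal in the ICM list belongs to the contrast that chose the loci, so these ranks and widths are a description.

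**Figure D2:**
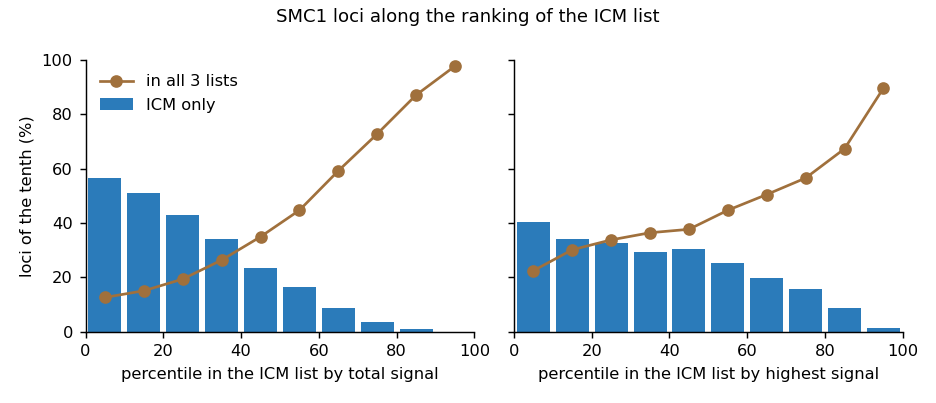
Share of ICM-listed SMC1 loci that were listed in ICM alone (bars) or in all 3 lists (line), in bins of 10 percentiles of the ICM list ranked by total signal (left) and by highest signal (right). On the left the ICM-only share falls from 56.7% in the lowest bin to 0 in the uppermost.

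The low promoter share was also seen among loci of like rank. In the lowest 25% of the ICM list by total signal, 13.2% (11.9 to 14.7%) of the 2257 members were at promoters, against 40.8% (37.6 to 44.1%) of 909 loci shared with control and 41.0% (37.1 to 44.9%) of 642 loci in all 3 lists. The 527 loci of that range shared with p34 had 13.9% (11.0 to 17.1%). Between percentiles 50 and 75 the values were 11.8% for 475 members, 35.1% for loci shared with control, 12.54% for those shared with p34 and 38.8% for those in all 3 lists. At each rank the ICM-listed loci without a control peak thus had the low share and those with one the high share. The uppermost 25% held 42 members, 2 of them at promoters.

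Most members lay more than 5 kb from any SMC1 peak of the other lists. These distances were not taken for other classes, so they do not show an unusual separation. The median distance to the nearest SMC1 peak was 27899.5 bp for the control list, 34406.5 bp for p34 and 22197 bp for whichever was nearer. Only 35 members (0.846%) came within 100 bp of a peak of either list, 265 (6.41%) within 1 kb and 879 (21.3%) within 5 kb, whereas 640 (15.5%) had none within 100 kb. The members closest to the limit of the rule were chr15:58332861-58333604 (hg38, as are all positions here), 98826 bp from the 5′ end of the hepatic lipase gene LIPC and 14 bp from a p34 peak, and chr2:237743665-237744509 in LRRFIP1, 15 bp from a control peak. Just outside it were chr9:6006837-6007791 and chr17:7687284-7687664, whose ICM peaks each shared 9 bp with a control peak. The members of lowest total signal, both at 2455, were chr14:90281216-90281617 in NRDE2 and chr1:235018042-235018610 between genes.

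**Figure D3:**
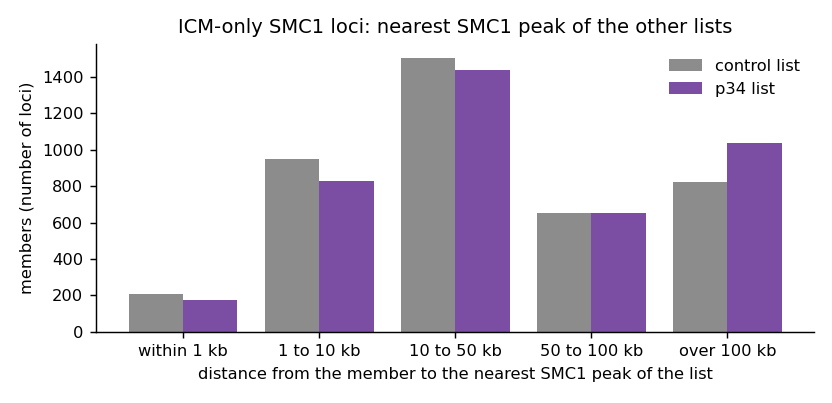
Number of the 4136 ICM-only loci by distance to the nearest SMC1 peak of the control list (grey) and of the p34 list (purple). In both lists the bin from 10 to 50 kb is the fullest, with 1505 and 1438 loci, and 210 and 177 loci lie within 1 kb.

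Few members coincided with a listed CTCF peak. A CTCF peak of the control list overlapped 232 members, which was 5.61% (4.93 to 6.35%) beside 19.0% of all SMC1 loci. One of the ICM list overlapped 471 members, 11.4% (10.4 to 12.4%) beside 26.7% of all loci, and one of the p34 list overlapped 614, 14.8% (13.8 to 15.97%) beside 26.6%. The CTCF lists took no part in choosing the loci. Loci of all 3 SMC1 lists had 33.7%, 44.4% and 39.6% in the same order, and p34-only loci 7.96%, 13.6% and 19.7%. No CTCF peak of any list lay over 3397 members (82.1%). Overlap was counted over the merged span of a locus, which can be wider where peaks of several SMC1 lists were joined than at a member.

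The CTCF lists differed less at members when their lengths were made equal, but their order there stayed the same. They held 4673 peaks in control, 6728 in ICM and 8577 in p34. With each kept to its 4673 peaks of highest total signal, the members' shares were 5.61% (4.93 to 6.35%) for control, 7.25% (6.48 to 8.09%) for ICM and 7.35% (6.57 to 8.19%) for p34. The ICM and p34 values were then close to each other, and each list comes from 1 library, so no order among the conditions was tested. At loci of all 3 SMC1 lists the equal-length values were 33.7%, 35.0% and 28.6%.

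**Figure D4:**
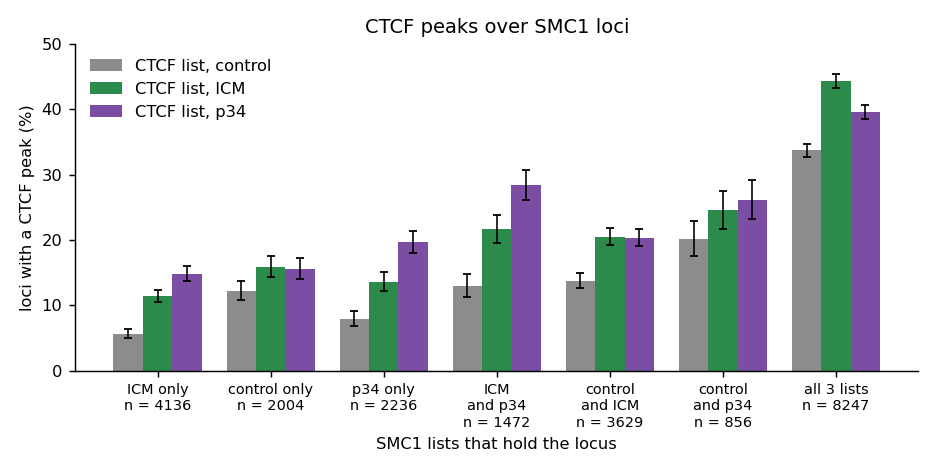
Percent of SMC1 loci with a CTCF peak of the control (grey), ICM (green) and p34 (purple) list, for each class of SMC1 lists. Error bars are exact 95% binomial intervals over loci. The ICM-only class has the lowest bar for each CTCF list, from 5.61% to 14.8%, and the loci of all 3 SMC1 lists the highest, from 33.7% to 44.4%.

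Of the 739 members with any CTCF peak, 252 (34.1%) had one in the p34 list alone, 187 (25.3%) in all 3 lists, 164 (22.2%) in ICM and p34, and 91 (12.3%) in ICM alone. The other 45 had one in control with or without 1 further list, in 29 cases with ICM, in 11 with p34 and in 5 with neither. Among the 4044 loci of all 3 SMC1 lists that had any CTCF peak, 61.0% had it in every CTCF list and 7.57% in p34 alone. The share in p34 alone was 37.3% for p34-only loci and 28.6% for loci shared by ICM and p34, so the members were not apart from these. The p34 CTCF list was the longest, and these patterns were not taken with lists of equal length. The CTCF peaks over members ranked lower in their lists than those over loci of all 3 SMC1 lists, at median percentiles of 36.7 in control, 42.4 in ICM and 45.1 in p34 by total signal, against 61.7, 64.5 and 70.8. By highest signal the medians were 41.3, 43.8 and 51.2 over members, so that those of p34 were near the middle of their list, and 59.1, 59.4 and 65.7 over loci of all 3 SMC1 lists. The SMC1 and CTCF summits of members lay a median of 91 bp apart for control CTCF, 85 bp for ICM and 32 bp for p34, and fell within 100 bp of each other in 52.6%, 53.9% and 80.5% of the pairs. CTCF peaks of the p34 list were narrower, with a median width of 978.5 bp over members against 2015 bp for ICM, and the part of width in this difference was not tested.

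The CTCF shares were also taken apart by position. At the 508 promoter members the shares were 8.86% for the control list, 15.4% (12.3 to 18.8%) for ICM and 13.0% (10.2 to 16.2%) for p34. At the 3628 distal members they were 5.15%, 10.8% (9.84 to 11.9%) and 15.1% (13.95 to 16.3%). The p34 list, the longest of the CTCF lists, had the highest share at distal members and not at promoter members. The same held for other classes, such as distal p34-only loci with 21.2% for p34 and 13.3% for ICM, and distal control-only loci with 19.9% and 16.04%. Shares by position were not taken with lists of equal length.

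**Figure D5:**
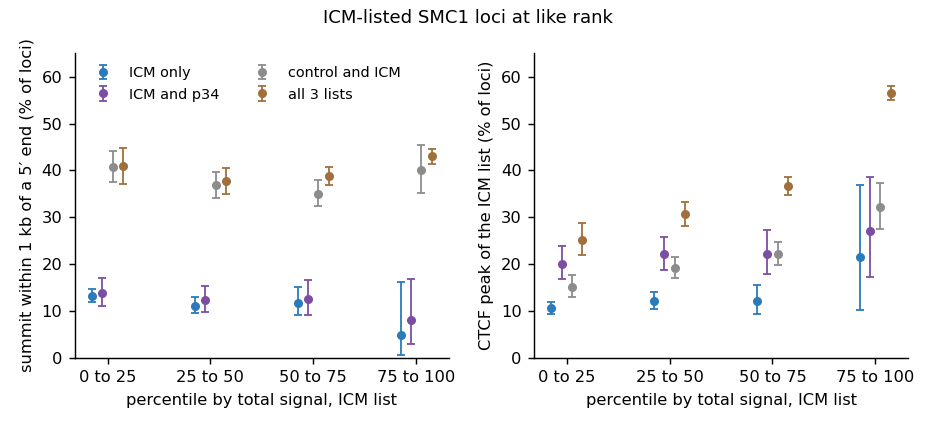
ICM-listed SMC1 loci in bins of 25 percentiles of the ICM list ranked by total signal. The left panel gives the percent of loci with the summit within 1 kb of a gene 5′ end and the right panel the percent with a CTCF peak of the ICM list, with exact 95% binomial intervals over loci. ICM-only loci and loci shared with p34 lie between 4.76% and 13.9% at the left while both classes with a control peak lie between 35.1% and 43.0%. On the right the ICM-only points are lowest in each bin, from 10.6% to 21.4%.

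At like rank the members also had the fewest CTCF peaks. In the lowest 25% of the list, 16.9% (15.4 to 18.5%) of members had a CTCF peak of any list, beside 20.5% (17.9 to 23.2%) of loci shared with control, 30.4% (26.5 to 34.5%) of loci shared with p34 and 32.6% (28.9 to 36.3%) of loci in all 3 lists. The interval of the members overlapped that of the loci shared with control there and no other. Between percentiles 50 and 75 the values were 19.4%, 28.3%, 30.7% and 42.0%. In promoter share the members resembled the loci shared with p34, and in CTCF they lay below them. Shared loci join peaks of several lists, so their merged span can be wider at like rank. The part of this span in the CTCF differences was not tested.

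The 10 members of highest total signal all lay inside annotated genes, and 9 of them were far from a start. The first was chr3:50627312-50628273 in MAPKAPK3, which encodes a kinase activated by p38, with a total signal of 7424 (percentile 86.5) and a height of 20. It lay 16109 bp from the 5′ end of CISH, a cytokine-induced inhibitor of signalling, and 10217 bp from the nearest control and p34 peaks. The second, chr11:66882901-66884186 in the pyruvate carboxylase gene PC, had a total of 7305 and was the only one of the 10 with a CTCF peak, at percentile 12.6 in the control list and 57.8 in the ICM list.

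The next were chr6:140053283-140053980, 678829 bp from the 5′ end of the coactivator gene CITED2, with a total of 7199, and chr3:100002724-100003424, where CMSS1 and FILIP1L overlap, with 7104. The fifth, chr2:72367674-72368296 in the exocyst subunit gene EXOC6B, had a total of 6886 and no control or p34 peak within 216834 bp. The remaining 5 had totals from 6481 to 6704 and lay in GNE (the first enzyme of sialic acid synthesis), LHFPL2, GALM (galactose mutarotase), SUSD1 and CMIP. Of these 10 members, 9 lay between 12762 and 114486 bp from the nearest 5′ end of any gene. The other, in GNE at chr9:36257854-36259160, was 577 bp from that of LOC124902150 and 18945 bp from that of GNE.

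The tallest members, named here, were narrower than the median member of 639 bp, though some lay within the quartiles of 508 and 813 bp. The tallest had a height of 39 (percentile 96.6) and lay at chr8:33104723-33105248, 526 bp wide and 338046 bp from the nearest p34 peak. Others of this kind lay 58504 bp from the 5′ end of ZHX2, in the olfactory receptor gene OR1F1, in ZCCHC8 (a part of the nuclear exosome targeting complex) and in the calpain inhibitor gene CAST, with heights of 35 to 37 and widths of 449 to 584 bp. The widest members were low. They were in MRPL23 (1771 bp, height 7), ZNF331 (1716 bp, height 6) and CHCHD6 (1662 bp, height 7), at percentiles 1.39 to 3.45 by height but 55.1 to 74.8 by total signal.

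The promoter members reached totals of 6704 at most. The coding promoter of highest total was that of NRN1L at chr16:67883695-67885087, with a total of 5923 (percentile 77.3), the summit 10 bp from the 5′ end, and CTCF peaks at percentiles 56.5 in control, 79.4 in ICM and 75.9 in p34. Next came GLRX, which encodes the redox enzyme glutaredoxin, at chr5:95822146-95823195 with a total of 5646 and no CTCF peak. It was close to the limit of the rule, with a control peak 219 bp and a p34 peak 260 bp away. ANGPT1, encoding a ligand of the endothelial receptor TEK, had a member with a total of 5645 and a p34 peak 570 bp away, while the nearest control peak was 584354 bp off. MRPL23, a mitochondrial ribosomal protein gene, had 5632 and CTCF in all 3 lists.

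RefSeq promoter windows of 300 bp (250 before and 50 after a transcript start, GRCh38) were available for 34961 starts, and 419 members overlapped 543 of them. The windows of NRN1L (chr16:67884635-67884934, plus strand) and GLRX (chr5:95822677-95822976, minus strand) are shown because they are the coding windows of highest member signal, that of MRPS35 (chr12:27710582-27710881, plus strand), a mitochondrial ribosomal protein gene, because it is the highest with an AP-1 letter match, and that of SLC30A7 (chr1:100895840-100896139, plus strand), a zinc transporter gene of the Golgi, because it is the highest coding window with a CTCF core match. The last pair was picked after the values were seen, and their members had totals of 4749 and 4407 and no listed CTCF peak. Capitals mark matches to 3 motifs searched on both strands, which were AP-1 (TGANTCA), a CTCF core (CCANN followed directly by AGNNGGC) and the GC box (GGGCGG). Each sequence runs 5′ to 3′ on the strand of its gene.
NRN1L: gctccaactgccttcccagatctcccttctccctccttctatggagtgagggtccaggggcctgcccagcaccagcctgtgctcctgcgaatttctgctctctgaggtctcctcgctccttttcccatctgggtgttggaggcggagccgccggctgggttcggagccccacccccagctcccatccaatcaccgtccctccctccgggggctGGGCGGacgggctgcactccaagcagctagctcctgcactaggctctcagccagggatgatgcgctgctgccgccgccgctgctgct
GLRX: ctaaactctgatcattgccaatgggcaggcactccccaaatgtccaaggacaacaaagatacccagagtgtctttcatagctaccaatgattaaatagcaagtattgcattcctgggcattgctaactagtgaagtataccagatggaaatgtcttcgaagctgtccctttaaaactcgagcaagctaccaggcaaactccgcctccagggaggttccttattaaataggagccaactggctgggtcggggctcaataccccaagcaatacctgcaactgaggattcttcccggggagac
MRPS35: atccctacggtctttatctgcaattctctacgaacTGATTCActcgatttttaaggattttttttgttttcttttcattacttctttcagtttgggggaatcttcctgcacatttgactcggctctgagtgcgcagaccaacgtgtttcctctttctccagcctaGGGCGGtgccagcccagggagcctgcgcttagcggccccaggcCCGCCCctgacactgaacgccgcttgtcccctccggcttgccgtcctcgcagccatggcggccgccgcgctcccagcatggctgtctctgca
SLC30A7: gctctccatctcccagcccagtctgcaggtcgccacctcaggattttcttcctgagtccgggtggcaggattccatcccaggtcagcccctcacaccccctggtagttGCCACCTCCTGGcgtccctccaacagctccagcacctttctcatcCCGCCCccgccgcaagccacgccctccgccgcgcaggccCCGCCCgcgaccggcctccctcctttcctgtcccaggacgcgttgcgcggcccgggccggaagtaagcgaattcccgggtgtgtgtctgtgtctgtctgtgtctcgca
NRN1L had 1 GC box and GLRX no match, MRPS35 had the AP-1 letters and 2 GC boxes, and SLC30A7 the CTCF core letters on the opposite strand and 2 GC boxes. The CTCF summits at the NRN1L member lay 945 to 947 bp from its SMC1 summit, outside the window printed, and a window without the letters says nothing about the factor.

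Across the 543 windows under members, 53 held the AP-1 letters, or 9.76% (7.40 to 12.6%), beside 7.68% of all windows and 5.37% (4.77 to 6.02%) of windows under loci of all 3 SMC1 lists. Windows with no SMC1 locus had 8.57%, inside the interval of the members, as was the value for all windows. The CTCF core letters were in 3.87% (2.41 to 5.85%), beside 2.41% of all windows and 3.47% under loci of all 3 lists. A GC box was in 64.3% (60.1 to 68.3%), between the 45.0% of all windows and the 73.1% under loci of all 3 lists. Median GC content was 64.0% under members, 58.7% over all windows and 65.7% under loci of all 3 lists. In 0 of the windows under members did matches of 2 motifs share a base. Neighbouring windows of 1 gene can overlap, so the windows are not independent, and these shares are a description.

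Distal members with CTCF in all 3 lists formed a small group of 151. The 5 of highest total signal lay on chromosome 8 at 73363 bp from the 5′ end of ZFAT (total 6450), in the gene of the actin-severing protein gelsolin, GSN (5679), near REEP2 (5652), 60279 bp from the 5′ end of the metalloprotease gene ADAMTS7 (5535) and near MIR192 and EHD1 (5387). At chr11:64887504-64888469, near MIR192, the summits of CTCF and SMC1 coincided within 6 bp in every list, and CTCF stood at percentiles 72.6, 71.7 and 93.3 in control, ICM and p34. At chr9:121319980-121320713 in GSN the summits lay 25 to 55 bp apart and CTCF stood at 16.3, 66.4 and 62.0. By the way they were chosen, these 5 sites were listed for CTCF in every condition and for SMC1 in ICM alone.

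Where CTCF was listed in ICM alone, the strongest members lay at TPRA1 (total 6022), ORAI3 (5853), RIPOR1 (5840), IGFBP3 (5562) and TUBGCP6 (5245). IGFBP3 encodes a carrier of insulin-like growth factors secreted by senescent fibroblasts. Its member at chr7:45924241-45925088 was 3262 bp from the 5′ end, under a CTCF peak at percentile 91.0 whose summit was 1160 bp away, and SMC1 peaks of control and p34 lay 362 and 565 bp from it. ORAI3 encodes a calcium channel, and its member at chr16:30949818-30950709 had a CTCF summit 3 bp from the SMC1 summit, at percentile 10.5 of the CTCF list. TUBGCP6, a subunit of the gamma-tubulin ring, had its member 10 bp from the 5′ end. In the TPRA1 and IGFBP3 pairs the summits were more than 1 kb apart, so an overlap of whole peaks did not always mean a shared summit.

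Among the chromosomes, the members' share of ICM-listed loci was lowest on chromosome 19 at 14.3% (11.9 to 16.9%), followed by chromosome 17 at 17.4% (15.0 to 19.9%) and chromosome 11 at 18.9% (16.6 to 21.4%). It was highest on chromosome 18 at 31.1% of 270 loci, on X at 28.2% (21.5 to 35.8%) and on chromosome 8 at 28.1% (24.9 to 31.4%). Chromosome 19 is the most gene-dense of the human chromosomes and chromosome 18 is gene-poor. These are only the extremes, and a relation of the share to gene density was not tested. Few members lay in dense runs. Runs of at least 3 members held 21 of them where neighbouring summits could be 5 kb apart and 146 where they could be 25 kb apart. At a distance between these, 25 runs held 76 members (1.84%), against 9 of 2004 control-only loci (0.449%) and 12 of 2236 p34-only loci (0.537%), which are fewer loci over the same chromosomes. The only run of 4, chr3:194572150-194593742, was in TMEM44. Other runs lay in NAV1, LOXL2, BNC2, CTIF and BACH1, and near TGFBI.

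Of 19974 coding genes, 2756 (13.8%) had a member in the body or within 10 kb. The genes with most members were long. CTIF, which takes part in cap-dependent translation, had 7 of its 19 SMC1 loci in the ICM list alone. The homeobox gene CUX1 had 6 of 10, the neuron navigator gene NAV1 6 of 25, the protein kinase C gene PRKCH 6 of 13, GSE1 6 of 19 and the diacylglycerol kinase gene DGKI 6 of 7. PLCB1 (a phospholipase C), NRG1 (neuregulin, a ligand of ERBB receptors) and KAZN had 5 of 8 each and the zinc finger gene HIVEP2 5 of 7. DGKI and HIVEP2 had control peaks at 1 and 2 of their loci. The 10 genes spanned 194 to 1225 kb, beside a median of 24.2 kb over coding genes.

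Gene lists for fibroblast and senescence functions were read against this background and against gene length. In the extracellular matrix list, 12 of 35 genes had a member. Of the 121 SMC1 loci of the whole list, 23 (19.0%) were members, beside 14.4% over all coding genes. That background counts a locus once for each gene it lies in or near. Members made up 18.3% of all SMC1 loci counted once, but these include loci far from any coding gene. The 18.3% is therefore not a like background for this list. COL5A2, a fibrillar collagen gene, had 4 of 7, the lysyl oxidase gene LOXL2 4 of 12, tenascin TNC 2 of 5, laminin LAMC1 2 of 6 and COL12A1 2 of 4. COL5A2 had 3 loci with a control peak and 0 with a p34 peak. Matrix genes had a median length of 75.2 kb.

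In the actin and mechanosensing list, 13 of 32 genes had a member, with 16.3% of the loci. The focal adhesion gene LPP had 4 of 14, the SRF coactivator MRTFA 3 of 7, and the nonmuscle myosin gene MYH9 2 of 12, with a total of 6114 at 1 of them. Growth factor receptor genes had a member in 12 of 26, with 14.9% of loci, among them EPHA2 (2 of 7), DDR2, FLT1, BMPR1A and TGFBR3. The lung mesenchyme transcription factor genes had one in 7 of 28, with 11 of 88 loci, and in this list RUNX1 had 3 of 10 and ZEB2 2 of 2. These shares of loci were near the background of 14.4%.

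The secretory phenotype list, the factors that senescent cells release, had a member at 10 of 40 genes and 12.0% of loci. ANGPT1 and IGFBP3 held the highest totals (5645 and 5562), followed by VEGFA (3732), IGFBP5 (3653) and EREG (2903). At EREG the member was the only SMC1 locus. AP-1 and immediate early genes, which respond to growth signals within minutes, had one at 9 of 26 genes and 13.5% of loci, with DUSP1 at 2 of 4, and ATF3, FOSL2, MAFK and FOS at 1 each. Genes of the p53 and RB arrest pathways had one at 2 of 24 (CCND2 and CCND3) and 4.17% of 48 loci, and cell-cycle genes at 4 of 30 (MCM2, MCM4, RRM2 and E2F2) and 10.5% of 38. The member within 10 kb of the helicase gene MCM2 was the one in TPRA1.

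Among genes of chromatin proteins, 4 of 17 HMG genes had members, which were 6 of the list's 29 loci. This was 20.7%, beside 14.4% over all coding genes and 18.3% of all SMC1 loci, whether near a coding gene or not. HMGN4, a nucleosome-binding protein gene, supplied 3 of these 6, one of them with a total of 6148. HMGB1 had 1 of 4 (total 3517), HMGA2 1 of 3 and HMGN3 1 of 2. The CTCF and cohesin machinery had members at 4 of 21 genes and 15.6% of 32 loci, with CTCF itself at 2 of 3, and YY1, STAG1 and the cohesin loader gene MAU2 at 1 each. Lamina and heterochromatin genes had them at 3 of 27 and 10.6% of 47 loci, where all 3 loci of the DNA methyltransferase gene DNMT3A were members with no peak in control or p34. Over the 11 lists, 80 of 306 genes had a member, beside 13.8% of all coding genes and 22.97% of the 12000 coding genes with an SMC1 locus. The list genes were counted with or without an SMC1 locus, so the 13.8% is the like background. For the HMG genes the share was 23.5% (6.81 to 49.9%), an interval that held the 13.8%.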

How the data were processed

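CTCF and SMC1 CUT&Tag was performed on IMR90 cells in 3 conditions with 1 library each, 6 in all. Per the study's methods, reads were aligned to hg38 with Bowtie2 and calibrated to E. coli reads. The submitters' processing notes name Bowtie2 2.3.4.1, Picard 2.20.7, deepTools and SEACR 1.3. The authors called peaks in each library separately and deposited the top 1% of regions by signal. In the deposited lists the signal values, total and highest, are whole numbers of unknown common scale, so ranks were taken within a list. Raw totals were set against another list only in the counts below its lowest listed value. The rule that applied the control's lowest total to all lists also used them. No depth could be derived from them, and precision is therefore given over loci. The methods also describe a CTCF motif filter, which was not applied here.

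Peaks were merged, ranked and annotated with Python 3.11, numpy 2.4.6, pandas 2.3.3, scipy 1.17.1 and matplotlib 3.10.9, and the merging was tested on simulated intervals. Gene positions came from RefSeq on GRCh38. Strand came from the RefSeq promoter table or, by symbol and chromosome, from GENCODE. It was found for 47057 of 59098 genes (79.6%) and 19630 of 19974 coding genes (98.3%), and genes without it gave no 5′ end. The 5′ end was the outermost end of the gene. A CTCF peak was counted where it overlapped the merged span of a locus by at least 1 bp. A list gene was counted where a member summit lay in its body or within 10 kb.

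The members and gene lists were chosen with earlier results of these data known. Named loci were the 10 of highest total signal, the next 5 by highest signal, the 3 widest, the 5 strongest at promoters, the 5 strongest distal with CTCF in all 3 lists, the 5 strongest with CTCF in ICM only, the 2 nearest to another list's peak, the 2 non-members of least overlap and the 2 of lowest total. Named genes were the 10 coding genes with most members and up to 5 per list. Alternatives changed the overlap rule, list length, promoter distance, gene set, CTCF overlap, cluster distance and gene margin. The mitochondrial peak of each list and chromosome Y were left out. Sequences of distal members were not analysed here, since the genome at hand was of another build.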

Additional observations from a re-analysis of the deposited data

Results flagged for a closer look

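Each list held 1 peak on the mitochondrial genome, outside the chromosomes analysed. It took 20.6% of the listed SMC1 signal in the ICM-treated library, above the 12.4% in the control library, and 31.4% in p34. These shares rest on 1 library each, and their part in the length of the lists or in the loci listed in ICM alone was not tested.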

How the results depend on the processing

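No paired analysis was possible because each group has 1 library and no test was made between conditions. Leaving out a replicate was likewise not possible. Of 109 values recomputed under other settings, 23 stayed within the interval of the value reported (counts within 1.5 times) and 86 moved beyond it. Those that moved follow, and their cause was not tested beyond what the setting itself changes. Absence from a list depends on its threshold, and no depth was at hand to say what each library could detect.

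Where windows of 100 bp around summits had to overlap, there were 6421 ICM-only loci, with a promoter share of 22.8%, CTCF shares of 12.7% (control), 20.2% (ICM) and 19.4% (p34), a median width of 718 bp, median percentiles of 29.4 by total and 28.6 by highest signal, and a median distance to a 5′ end of 10578 bp. Where peaks had to overlap by at least 50% of both lengths, the promoter share was 18.1%, the CTCF shares 10.8%, 17.7% and 18.1%, the percentile by total signal 24.4 and the distance 12945 bp. Joining peaks less than 1 kb apart gave CTCF shares of 4.91% in control and 9.98% in ICM.

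With SMC1 lists of equal length by total signal there were 2107 loci, with CTCF shares of 7.26%, 13.4% and 17.2%, a width of 696 bp and percentiles of 42.0 and 47.6. By highest signal there were 2537 loci, with a promoter share of 8.67%, CTCF shares of 4.77%, 10.01% and 13.4%, a width of 564 bp, percentiles of 30.2 and 47.6 and a distance of 18712 bp. The upper 50% of the ICM list left 517 loci, with 11.2% at promoters, CTCF shares of 6.77%, 13.0% and 16.4%, a width of 746 bp, percentiles of 58.7 and 58.9 and a distance of 18576 bp.

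When only the control list had to lack the locus, the CTCF shares were 7.87%, 14.5% and 18.5%, the width 659 bp, the percentile by total signal 25.2 and the distance 14972 bp. When only the p34 list had to lack it, there were 7849 loci with 24.2% at promoters, CTCF shares of 9.68%, 16.1% and 17.4%, a width of 668 bp, percentiles of 31.2 and 41.5 and a distance of 10905 bp.

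The promoter share was 9.89% with the narrower distance of 0.5 kb, 16.1% within 2 kb and 8.75% for coding genes only, whose median distance was 38848 bp. The CTCF shares in control, ICM and p34 were 2.90%, 6.09% and 11.9% by summit windows and 6.58%, 12.48% and 16.8% within 1 kb, and with equal CTCF lists 7.25% in ICM and 7.35% in p34. Clusters held 21 members at 5 kb and 146 at 25 kb. List genes with a member numbered 53 in the gene body and 135 within 50 kb.

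The following settings were chosen after seeing the data. With SMC1 peaks at or above the lowest control total signal there were 1227 loci, CTCF shares of 7.42%, 14.2% and 17.6%, a width of 736 bp and percentiles of 50.7 and 53.5. Members at least 5 kb from the peaks of other lists had CTCF shares of 4.67% in control and 9.58% in ICM, a width of 630 bp and a distance of 17937 bp. With starts from the RefSeq promoter table the promoter share was 13.8% and the distance 14568 bp. The promoter share of ICM-only loci was below that of control-only, p34-only and 3-list loci under all 5 rules for which these classes were compared.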
